A study of Mus musculus with 2 samples.

Results

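The oxidative phosphorylation genes described here are 105 of the 27998 genes counted in single immune cells from mouse tumours. They were chosen by symbol: the Ndufa, Ndufb, Ndufc, Ndufs and Ndufv genes of complex I, Sdha to Sdhd of complex II, the Uqcr genes of complex III, the Cox4 to Cox8 genes of complex IV, the Atp5 genes of complex V, and the mitochondrially encoded mt-Nd, mt-Co, mt-Atp and mt-Cytb genes. Of the 105, 92 are nuclear-encoded and 13 mitochondrially encoded. At least 20 unique molecular identifiers (UMIs, each a counted transcript molecule) over both libraries were found for 87 nuclear and all 13 mitochondrial members. The 5 nuclear members below that minimum were Cox4i2, with 12 UMIs in control and 6 in anti-PD-1 cells, and Cox7b2, Cox8b, Cox8c and Ndufa4l2. The symbol rule also took 11 nuclear rows that are not subunits, 7 of them Ndufaf assembly factors, and it missed Cyc1, Cycs and Usmg5, which stand in a related list below.

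The source was tumours formed in C57BL/6J mice by MC38, a colon carcinoma line of the mouse, from which live CD45+ (immune) cells were sorted. Each mouse bore tumours at 4 sites in the skin. After 7 days of growth these received either a control injection or anti-PD-1, which blocks an inhibitory receptor of T cells, at a daily 200 µg per mouse, and collection followed on day 10. Each arm gave 1 library of 10x Genomics 3' chemistry. How many mice each library pools, and what the control injection held, are not given in the labels. No difference between the libraries therefore has a replicate check, no p-value is given, and the 95% intervals below cover counting error only.

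The respiratory chain passes electrons from NADH, through complex I, and from succinate, through complex II, to ubiquinone, complex III, cytochrome c and complex IV, which reduces oxygen. The proton gradient built on the way drives complex V, the ATP synthase. Complexes I, III, IV and V are mosaics of subunits from 2 genomes: mitochondrial DNA encodes a few catalytic core subunits on long transcripts that are cut into mRNAs, complex II is wholly nuclear, and the nuclear subunits are transcribed from scattered genes, many of them with binding sites for the factors NRF1 and GABP. In immune cells the balance of respiration and glycolysis is known to shift with activation: effector T cells and inflammatory macrophages use more glycolysis, while regulatory T cells and tissue macrophages are known for a larger use of respiration.

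The promoter sites can be seen in the sequences themselves. Below are stretches, in RefSeq's GRCm38.p6 sequence, from the 2 most abundant members with an NRF1 match upstream of the start site, shown because the letters are shared by many members and were not used to choose them. The capitals mark the match: GCGCA, then any base, then GCGC. The first is from Atp5h (chr11:115420011-115420100, minus strand), a stalk subunit of complex V, and the second from Atp5g2 (chr15:102671048-102671129, minus strand), a gene for subunit c, the ring that turns in complex V. Upstream refers to RefSeq's start site, and a longer Atp5g2 transcript of GENCODE M21 starts further upstream, so the second stretch lies inside that longer gene model.
Atp5h promoter: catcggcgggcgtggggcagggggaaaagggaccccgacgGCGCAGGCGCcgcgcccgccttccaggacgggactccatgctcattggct
Atp5g2 promoter: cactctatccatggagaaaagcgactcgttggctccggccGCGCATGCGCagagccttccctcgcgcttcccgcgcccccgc
Of the 73 nuclear members found in the promoter table (250 bases before to 50 after the start site), 19 (26.03%) held this NRF1 pattern on either strand. Among all 27025 genes of that table, 1402 (5.19%) did. A gene counted if any of its promoters held the pattern. The ETS-type letters CCGGAAG, of the kind GABP reads, were in 17 of the 73 (23.3%) and in 2683 of all genes (9.93%). A match is a run of letters and not evidence of a bound site.

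Cells were barcodes with at least 1000 UMIs and at most 10% of them from mitochondrial genes: 1174 control cells with a median of 3287 UMIs and 3321 anti-PD-1 cells with a median of 2763. The mitochondrial limit left out 11 and 24 barcodes, and it bounds every mitochondrial value below. Classes were gated on marker UMIs, such as C1qa, C1qb and C1qc for macrophages, Ncr1 and Klrb1c for NK cells, Cd3 genes with Cd8a or Cd8b1 for CD8 T cells and Cd3 genes with Foxp3 for regulatory T cells. A class was given to 81.8% of the control cells and to 86.7% of those from anti-PD-1 tumours. Cells with markers of more than 1 lineage, 34 and 119, were left out. In macrophages, Csf1r, the receptor for macrophage colony-stimulating factor and no part of their gate, was counted 394 times in control and 342 times in anti-PD-1 cells. Only 4 barcode sequences occurred as cells in both libraries. RNA free in the droplets made up an estimated 1.61% and 1.72% of the UMIs in lymphocytes. Anti-PD-1 classical monocytes carried the neutrophil genes S100a8 and S100a9 at 10772 CPM against 92.9 in control. CPM is a gene's or list's UMIs scaled to a common total per class. The ratios of classical monocytes and of macrophages were computed again without the cells that met neutrophil criteria. For control macrophages the gate genes C1qa, C1qb and C1qc summed to 12546.5 CPM, Csf1r to 349 and the classical monocyte markers to 3861. For anti-PD-1 macrophages these stood at 9343, 280 and 5035. Classical monocytes had 11969.5 and 14458 CPM of those monocyte markers and CD8 T cells 3302 and 5975, control first. Whether the macrophage class held more monocyte-like cells in anti-PD-1 was not tested.

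The 92 nuclear members took similar shares of the transcripts in most classes, and the mitochondrial members did not. Levels are UMIs of a class summed and given as CPM, so they are shares of a class's RNA and not molecules per cell. Where both libraries gave a class 30 or more cells, the nuclear sum in the control library ran from 23317 CPM in T cells with no subset call to 26104 in cDC2, with migratory dendritic cells lower at 20489 CPM (95% interval 19819 to 21175). In the anti-PD-1 library it ran from 24764 CPM in the same T cells to 28927 in cDC2, again with migratory dendritic cells lower at 20098 (19660 to 20542). Neutrophils were lower still, at 11378 CPM (11069 to 11693) for 188 anti-PD-1 cells, while the control library held only 7 neutrophils.

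Mitochondrially encoded transcripts were lowest in migratory dendritic cells and regulatory T cells among the classes of that size. Migratory dendritic cells stood at 15406 CPM in control and 13742 in anti-PD-1, regulatory T cells at 15370 and 17053, and CD4 T cells without Foxp3 at 17082 and 19063. Macrophages stood at 23622 and 31316 CPM, classical monocytes at 23749 and 27757, NK cells at 23102 and 23345, and CD8 T cells at 24386 and 21725. Per nuclear UMI, mitochondrial UMIs numbered 0.642 and 0.683 in regulatory T cells, 0.752 and 0.684 in migratory dendritic cells, 0.934 and 1.11 in macrophages, and 0.971 and 0.764 in CD8 T cells. Classical monocytes had 0.916 and 0.969, cDC2 0.795 and 0.873, NK cells 0.945 and 0.921, and CD4 T cells 0.661 and 0.729. T cells with no subset call had 0.847 and 0.880. Among classes of that size, only macrophages in anti-PD-1 thus had more mitochondrial than nuclear members' transcripts. Nonclassical monocytes, gated on Ace and Treml4 with Csf1r, had 1.07 and 1.06, from 13 and 49 cells. The 188 anti-PD-1 neutrophils had 7358 mitochondrial CPM (7110 to 7612), the lowest of the 11 classes in that library. The 7 control neutrophils went the other way, with 25450 mitochondrial CPM (22590.5 to 28571) and 1.91 mitochondrial UMIs per nuclear UMI. The low level was thus seen in the anti-PD-1 library only.

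**Figure D1:**
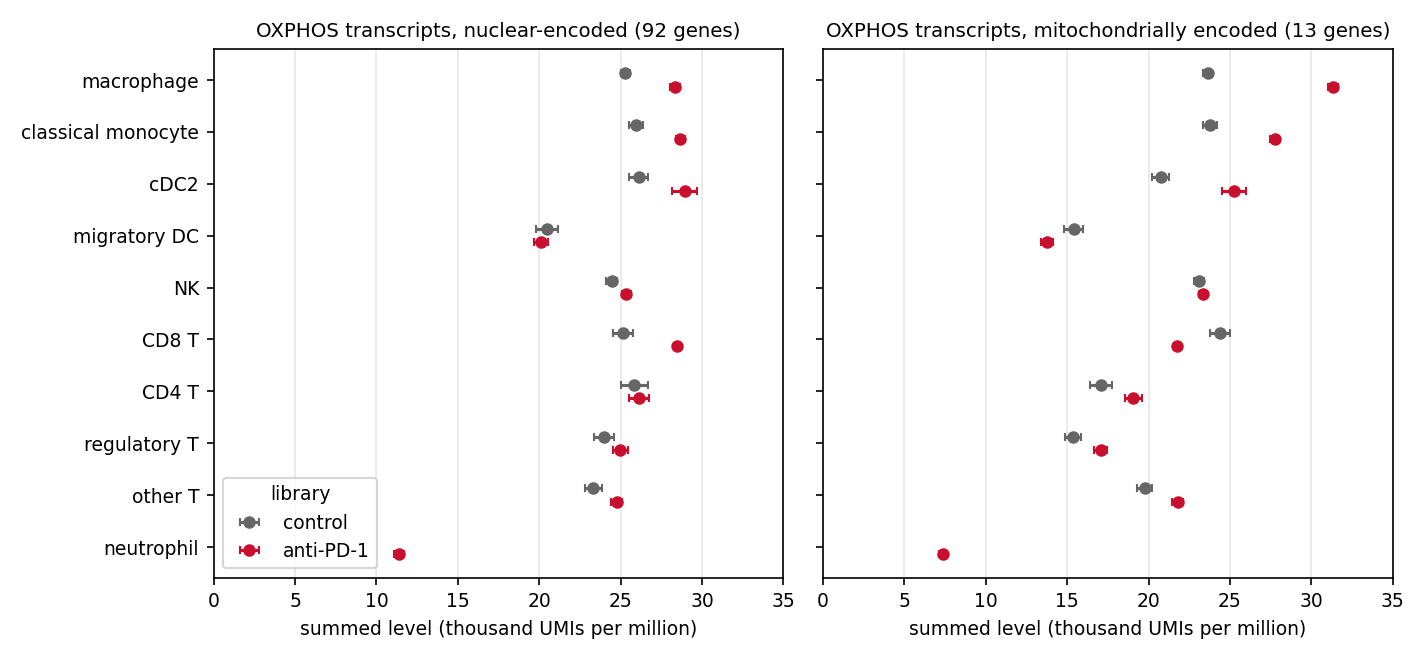
Summed level of nuclear-encoded and of mitochondrially encoded oxidative phosphorylation genes (CPM) by cell class, control beside anti-PD-1, with 95% counting intervals. Nuclear sums are lowest in migratory dendritic cells, at 20489 and 20098 CPM, and neutrophils, while mitochondrial sums run from 7358 CPM in anti-PD-1 neutrophils to 31316 in anti-PD-1 macrophages.

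Within the nuclear sum the complexes kept similar proportions. In macrophages complex I made up 29.7% of nuclear UMIs in control and 28.98% in anti-PD-1, complex IV 29.96% and 31.5%, complex V 27.3% and 26.9%, complex III 10.6% and 10.2%, and complex II 2.4% in each. The most abundant nuclear members over all cells were Cox4i1 (21610 UMIs), the complex IV subunit through which ATP is known to slow the enzyme, Atp5l (16133 UMIs), the ATP synthase subunit g, and Uqcrh (15975 UMIs), the complex III hinge protein next to cytochrome c1. Ndufa13 (8189 UMIs) led complex I and Sdhb (4026 UMIs), the iron-sulfur subunit, led complex II. Among mitochondrial members mt-Atp6 (100044 UMIs), the proton channel of complex V, stood before mt-Co3 (69323) and mt-Co1 (68817), core subunits of complex IV. UMIs are counted near poly(A) sites without correction for gene length, so these orders are of counted molecules.

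Single members differed between classes more than their sum. Sdhc, a membrane anchor of complex II, was highest in macrophages in both libraries, at 93.0 CPM (76.1 to 113) in the control library and 102 (85.2 to 122) in the anti-PD-1 library. The lowest class was migratory dendritic cells in control, at 23.2 CPM from 4 UMIs, and neutrophils in anti-PD-1, at 24.3 CPM from 11 UMIs, so the log2 distance of the extremes was 2.01 and 2.07. Ndufc1 (202 and 239 CPM in macrophages), Ndufab1, the mitochondrial acyl carrier protein (159 and 194), Ndufa12 (233 and 215), Ndufb8 (391 and 465) and Sdhb (285 and 338) were likewise highest in macrophages in both libraries, as was mt-Cytb, the core of complex III, at 1966 and 2838 CPM. Atp5o, the stator subunit that confers oligomycin sensitivity, was highest in cDC2 at 353 and 372 CPM. These 8 have the widest ranges that hold in both libraries, in each case with migratory dendritic cells, regulatory T cells, CD4 T cells or neutrophils at the bottom. Uqcrh had the opposite order: CD4 T cells led with 1379 (1197 to 1581) and 1341 (1209 to 1483) CPM, CD8 T cells had 1235 and 1198, and macrophages 588 (544 to 635) and 610 (567 to 655).

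The share of each gene among mitochondrial UMIs also differed between classes. The mt-Co1 share was 23.3% and 20.4% in regulatory T cells, 23.6% and 18.4% in CD4 T cells and 27.0% and 21.5% in migratory dendritic cells, against 17.0% and 15.5% in macrophages and 18.3% and 18.0% in NK cells, for control and anti-PD-1. The classes with few mitochondrial transcripts thus had the larger mt-Co1 shares. The mt-Cytb share was 8.32% and 9.06% in macrophages and 4.62% and 5.73% in migratory dendritic cells. Counts for mt-Nd6, on the other strand, for mt-Atp8, whose reading frame overlaps mt-Atp6, and for mt-Nd4l, on 1 transcript with mt-Nd4, are uncertain, since reads of neighbours can fall to either.

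Several subunits have paralogues, and the classes differed in the shares of those for subunit c and Cox7a. Subunit c of complex V is the same mature protein from Atp5g1, Atp5g2 and Atp5g3, which differ in their mitochondrial import sequences. The Atp5g1 share of subunit c UMIs was 36.1% (33.5% to 38.8%) in macrophages of the control library and 41.4% (39.0% to 43.8%) in those of the anti-PD-1 library, 39.0% and 38.1% in classical monocytes and 41.7% and 41.2% in cDC2. It was 14.3% (10.0% to 19.5%) and 19.3% (15.4% to 23.6%) in regulatory T cells, where Atp5g2 held 61.9% and 56.1%, and 25.4% and 30.04% in CD8 T cells, 26.4% and 28.3% in NK cells and 20.4% and 26.4% in CD4 T cells. The intervals of macrophages and of each of these lymphocyte classes do not overlap in either library. In complex IV, Cox4i1 made up nearly all Cox4 transcripts, as its hypoxia-linked paralogue Cox4i2 fell under the minimum. Among Cox7a transcripts, Cox7a2l, a relative of Cox7a2 not counted here as a subunit, exceeded Cox7a2 in CD8 T cells, where Cox7a2 held 37.2% (32.1% to 42.5%) and 40.2% (38.8% to 41.6%). In macrophages Cox7a2 held 51.5% (48.5% to 54.6%) and 60.2% (57.5% to 62.8%).

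**Figure D2:**
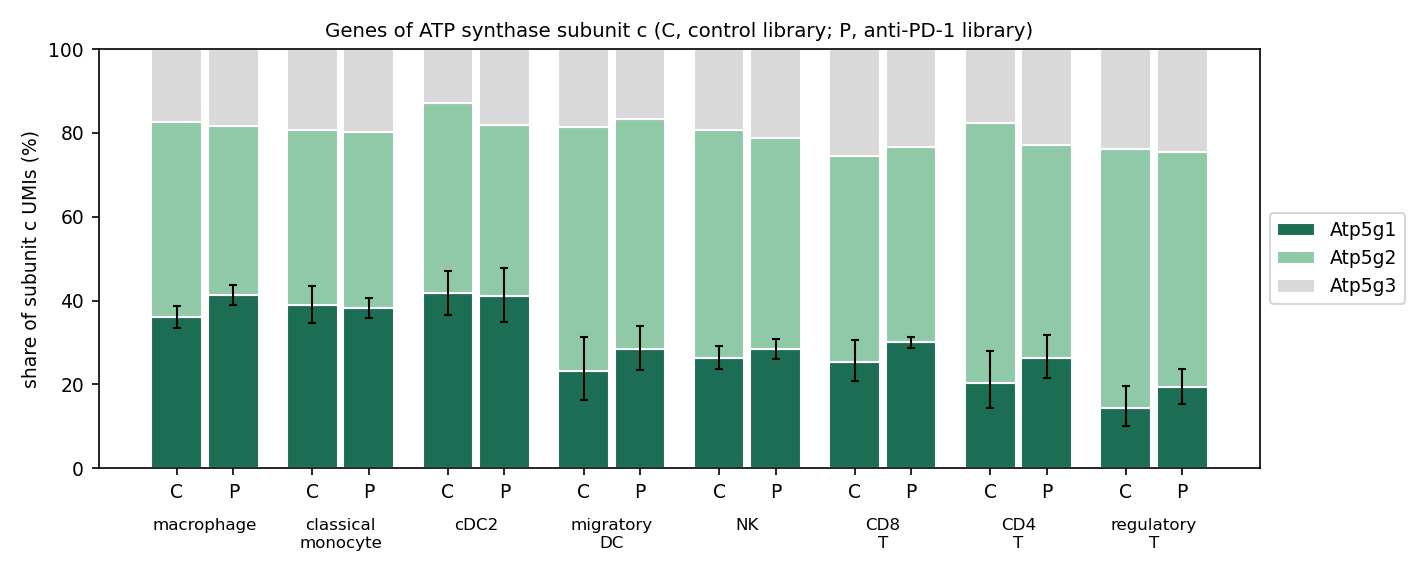
Share of subunit c UMIs from Atp5g1, Atp5g2 and Atp5g3 (percent) by cell class, control and anti-PD-1. Atp5g1 reaches 36.1% and 41.4% in macrophages and 14.3% and 19.3% in regulatory T cells, where Atp5g2 holds the most.

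Regulatory T cells had less mitochondrially encoded RNA than CD8 T cells in both libraries, with all 10 genes that could be measured in both in the same direction. The log2 ratio of the mitochondrial sums was -0.67 (-0.72 to -0.61) in the control library and -0.35 (-0.38 to -0.31) in the anti-PD-1 library, for 81 and 157 regulatory and 70 and 1060 CD8 T cells. The nuclear ratio was -0.07 and -0.19. Lower in both libraries were 10 of 10 mitochondrial and 37 of 75 nuclear members, against 25.8% of the 3003 genes measured in both, and 10 nuclear members were higher in both. The complex I gene mt-Nd2 was at 277 CPM in regulatory and 686 in CD8 T cells of the control library and at 312 and 504 in the anti-PD-1 library, log2 ratios of -1.31 and -0.69. For mt-Nd1 the ratios were -0.88 and -0.49, for mt-Atp6 -0.73 and -0.35, and for mt-Co1, the least different in both, -0.36 and -0.16. CD4 T cells without Foxp3 were also lower than CD8 T cells, at -0.51 and -0.19. That class can hold regulatory T cells in which no Foxp3 UMI was counted. The 81 and 157 regulatory T cells held only 122 and 248 Foxp3 UMIs. Ribosomal protein transcripts took 23.6% and 22.3% of UMIs in regulatory and 35.4% and 28.5% in CD8 T cells, and with ribosomal and mitochondrial genes left out of the totals the mitochondrial ratio was -0.93 and -0.48. The smaller gap in the anti-PD-1 library includes the lower mitochondrial level of its CD8 T cells, described below, so the ratios of the 2 libraries are not independent of that comparison.

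**Figure D3:**
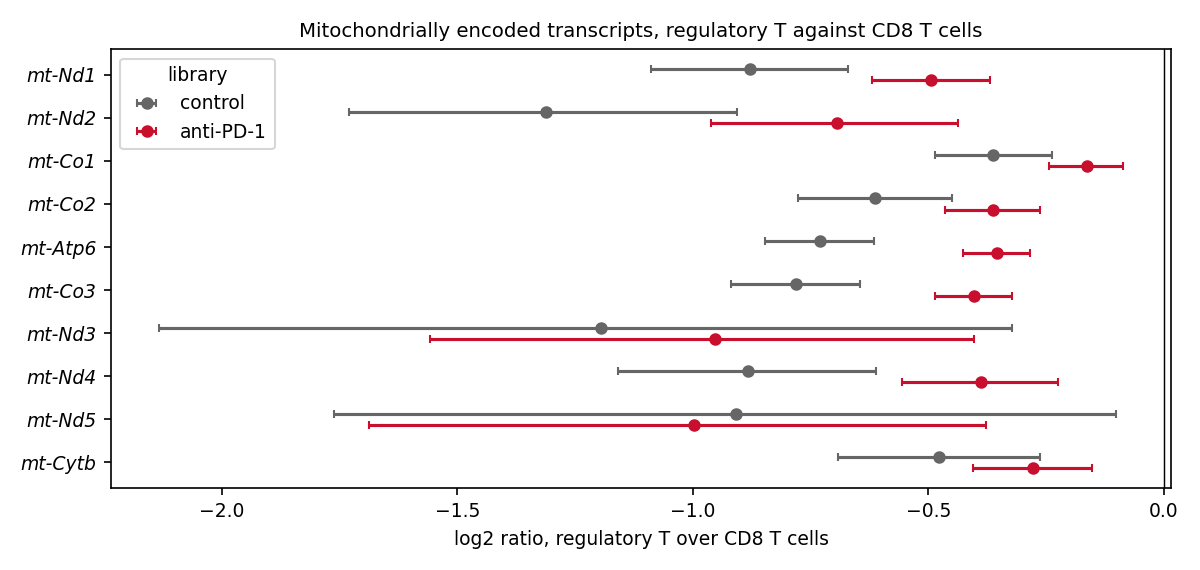
Log2 ratio of regulatory T over CD8 T cells for mitochondrially encoded genes in control and anti-PD-1 libraries, with 95% counting intervals. All genes measured in both libraries lie below 0 in both. Nearest to 0 is mt-Co1, at -0.36 and -0.16, and farthest are mt-Nd2 in control, at -1.31, and mt-Nd5 in anti-PD-1, at 52.8 CPM in regulatory and 105 in CD8 T cells.

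Migratory dendritic cells, gated on Ccr7, Fscn1 and Ccl22, were lower than cDC2 for both genomes. The nuclear log2 ratio was -0.35 (-0.41 to -0.29) in the control library and -0.53 (-0.58 to -0.48) in the anti-PD-1 library, and the mitochondrial one -0.43 and -0.88. Lower in both libraries were 63 of 74 nuclear and 9 of 10 mitochondrial members, against 48.3% of the 2490 genes measured. These ratios rest on 32 and 95 migratory dendritic cells and 40 and 32 cDC2. NK cells and macrophages gave no settled order. The nuclear ratio of NK cells over macrophages was -0.05 and -0.16 and the mitochondrial one -0.03 and -0.42, with 16 of 81 nuclear members higher in both libraries and 41 lower, against 35.7% and 43.1% of all genes, and 1 and 6 of 12 mitochondrial members. Ribosomal protein genes held 36.5% and 31.6% of NK and 19.1% and 20.6% of macrophage UMIs. With those and mitochondrial genes left out of the totals, the nuclear ratios became 0.31 and 0.05 and the control mitochondrial ratio 0.33.

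Macrophages of the anti-PD-1 library had higher levels of both genomes' members, the mitochondrial more so, while their glycolytic genes were lower. The macrophage class also differed between libraries in its gate genes and monocyte markers, as given above. How far that difference enters the ratios was not tested. The nuclear sum was 25291 CPM (24998 to 25586) over 181 control cells and 28332 (28035 to 28632) over 200 anti-PD-1 cells, a log2 ratio of 0.16 (0.14 to 0.19). The mitochondrial sum was 23622 (23340 to 23908) and 31316 (31003 to 31632), a log2 ratio of 0.41 (0.38 to 0.43). Among measured members, 62 of 83 nuclear (74.7%) and 12 of 12 mitochondrial were higher in anti-PD-1, against 54.7% of all 6979 genes measured in macrophages. Past 1.5-fold, 4 nuclear members were higher and 1 lower and 3 mitochondrial higher, where 12.7% of all genes were higher and 10.6% lower by that much, so most nuclear differences were small. The nuclear ones higher were Ndufa4, Ndufa3 and the assembly factors Ndufaf4 and Ndufaf7, the one lower was Cox7a1 (14 and 9 UMIs), and the mitochondrial ones were mt-Atp8, mt-Nd3 and mt-Nd4l. Members named beside such counts here and below, where no other rule names them, were chosen after their values were seen. By complex the nuclear log2 ratio was 0.24 for IV, 0.16 for II, 0.14 for V, 0.13 for I and 0.11 for III. The nuclear difference varied with depth. Among cells with 2500 to 5000 UMIs, 49 control and 46 anti-PD-1, it was 0.03, from 24504 and 25053 CPM, while the mitochondrial ratio was 0.26. Cells with 5000 or more UMIs, 110 and 112, had 25496.5 and 29083 nuclear CPM. Those under 2500 UMIs, 22 and 42, had 24414 and 26342. In every alternative run, the mitochondrial ratio stayed above 0, between 0.26 and 0.51. No such run took cells under 2500 UMIs alone, and there the direction turned, with 36483 mitochondrial CPM in control and 30576 in anti-PD-1.

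Each of the abundant mitochondrial genes took part in the macrophage difference. The log2 ratios were 0.53 (0.45 to 0.61) for mt-Cytb, at 1966 and 2838 CPM, 0.50 for mt-Co3, 0.48 for mt-Nd4, 0.43 for mt-Nd1, 0.41 for mt-Atp6, 0.32 for mt-Co2 and 0.28 for mt-Co1. The highest ratio, 1.64 (0.93 to 2.39), was that of mt-Atp8, from 22 and 74 UMIs, whose assignment is uncertain as said above. Among nuclear members Ndufa4, a complex IV subunit despite its name, had the highest ratio, at 201 (176 to 229) and 365 (332 to 401) CPM, and Ndufa3 of complex I had 158 and 266 CPM, log2 ratios of 0.86 and 0.75. In cells thinned to 1000 UMIs the Ndufa3 ratio was -0.18 (-0.87 to 0.50), an interval that spans 0. Among the lowest ratios were those of the complex I members Ndufv3, at 313 and 243 CPM (-0.36, -0.59 to -0.14), and Ndufs7 (-0.20), whose interval spans 0.

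Classical monocytes gave a similar picture on pooled UMIs that did not hold when each cell counted alike. The nuclear log2 ratio was 0.14 (0.12 to 0.17) and the mitochondrial one 0.22 (0.20 to 0.25) for 138 and 282 cells, with 64 of 82 nuclear (78.0%) and 11 of 12 mitochondrial members higher, against 53.9% of all genes. Past 1.5-fold, 5 nuclear and 3 mitochondrial members were higher and none of either lower, against 15.7% and 12.9% of genes. They were Sdhd, Atp5k, Ndufa3, Ndufs4 and Ndufaf2, and mt-Atp8, mt-Nd3 and mt-Nd4l. As a mean over cells the ratios were -0.0045 and -0.000047, and in cells with 2500 to 5000 UMIs they were -0.014 and 0.19. Without cycling cells they were 0.031 and 0.081. Shallow control monocytes, with fewer than 2500 UMIs, had 34263 mitochondrial CPM against 22549 in those of 2500 to 5000 UMIs. The direction between libraries turned with depth. Under 2500 UMIs, 40 control and 64 anti-PD-1 cells had 27536 and 21534.5 nuclear and 34263 and 22755 mitochondrial CPM. With 5000 or more UMIs, 22 and 107 cells had 26411 and 31298 nuclear and 20900 and 29402 mitochondrial CPM. Without cells carrying neutrophil UMIs, 1 and 30, both ratios moved by less than the main values' own intervals. The highest single ratios after mt-Atp8 (0.80) were 0.74 for Sdhd, a membrane anchor of complex II, at 113 and 189 CPM, and 0.73 for Atp5k, subunit e of complex V, at 168 and 278 CPM, though Atp5k was at -0.031 in thinned cells. The lowest were mt-Nd5 (-0.41), Ndufa6 (-0.37, at 447 and 347 CPM) and Ndufb4 (-0.35).

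In CD8 T cells the genomes went opposite ways: the nuclear members were higher and the mitochondrial ones lower in the anti-PD-1 library. The nuclear sum was 25124 CPM (24529 to 25730) over 70 control cells and 28443 (28272 to 28616) over 1060 anti-PD-1 cells, a log2 ratio of 0.18 (0.14 to 0.21). The mitochondrial sum was 24386 (23800 to 24982) and 21725 (21575 to 21876), a log2 ratio of -0.17 (-0.20 to -0.13). Of measured members, 62 of 79 nuclear (78.5%) were higher and 12 of 12 mitochondrial were lower, where 60.4% of all 4565 genes were higher. Past 1.5-fold, 6 nuclear members were higher, none lower, and no mitochondrial member was past it either way, against 21% and 7.6% of genes. Besides the 3 below they were Ndufa5 of complex I and the complex III core proteins Uqcrc1 and Uqcrc2. Ndufa9, at 55.7 and 103 CPM, Ndufv2 (0.77) and Ndufs4 (0.68), all of complex I, had the highest ratios. The lowest were mt-Nd2 at 686 and 504 CPM (-0.44, -0.66 to -0.22), mt-Nd4 (-0.25) and Uqcrfs1, the Rieske protein of complex III (-0.24, -0.55 to 0.09), and in thinned cells mt-Nd4 was at 0.014. The nuclear difference depends on the denominator: with ribosomal and mitochondrial genes out of the totals it was 0.023, whereas the mitochondrial ratio was -0.32. The mitochondrial ratio was below 0 in every alternative run but shrank to -0.056 (-0.11 to 0.0021) among cells with 2500 to 5000 UMIs, from 22052 and 21213 CPM, and to -0.096 with a mitochondrial limit of 5%. A Gzmk UMI was found in 689 of 1060 anti-PD-1 and 16 of 70 control CD8 T cells. The mitochondrial sum was lower in anti-PD-1 both in cells with Gzmk, at 20898 CPM against 23783 in control, and in those without, at 23494 against 24556.

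NK cells of the libraries differed little in either sum. Their nuclear log2 ratio was 0.05 (0.03 to 0.08) and the mitochondrial one 0.02 (-0.01 to 0.04) for 228 and 386 cells, with 51 of 82 nuclear (62.2%) and 5 of 12 mitochondrial members higher against 60.0% of all genes. Past 1.5-fold were 3 nuclear members higher and 1 mitochondrial lower, against 13% and 5.77% of genes. They were Ndufv1, Ndufaf1 and Ndufaf7, and mt-Nd4l (30 and 17 UMIs). The nuclear sign turned to -0.058 without ribosomal and mitochondrial genes in the totals. Ndufv1, the NADH-binding subunit of complex I, had 42.7 and 79.1 CPM (0.89, 0.33 to 1.48), Ndufs3 a ratio of 0.54 and Sdhb 140 and 202 CPM (0.53), while mt-Nd3 (-0.50), Sdhc (-0.39) and Uqcr11 (-0.34) were lowest.

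Regulatory T cells had a nuclear log2 ratio of 0.06 (0.01 to 0.11) and a mitochondrial one of 0.15 (0.09 to 0.21), with 49 of 75 nuclear (65.3%) and 8 of 10 mitochondrial members higher, against 53.5% of all genes. Both sums moved with the settings: as a mean over cells they were 0.011 and 0.038 and without cycling cells 0.0091 and 0.070, while the mitochondrial ratio was 0.032 (-0.066 to 0.13) in thinned cells and 0.43 with gates 1 UMI higher. Past 1.5-fold were 4 nuclear members, all higher, against 13.6% of genes higher and 9.91% lower. They included Sdhd, Sdhb and Cox6a1. Complex II stood out in size, at 0.59 (0.23 to 0.96) from 90 and 223 UMIs: Sdhd had 59.3 and 122 CPM (1.05, 0.19 to 1.98) and Sdhb 190 and 297 (0.65). Cox6a1 of complex IV had 300 and 463 CPM (0.62). The lowest ratios were Cox7b, at 533 and 381 CPM (-0.48, -0.82 to -0.14), Ndufa1 (-0.35) and Ndufv3 (-0.33). Among the smaller classes, cDC2 had ratios of 0.15 nuclear and 0.28 mitochondrial, CD4 T cells 0.02 and 0.16, T cells with no subset call 0.09 and 0.14, and migratory dendritic cells -0.03 and -0.16. In the last, 5 mitochondrial members were higher and 5 lower, with a median of 0.0074, and with gates 1 UMI higher the mitochondrial ratio was -0.0026.

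**Figure D4:**
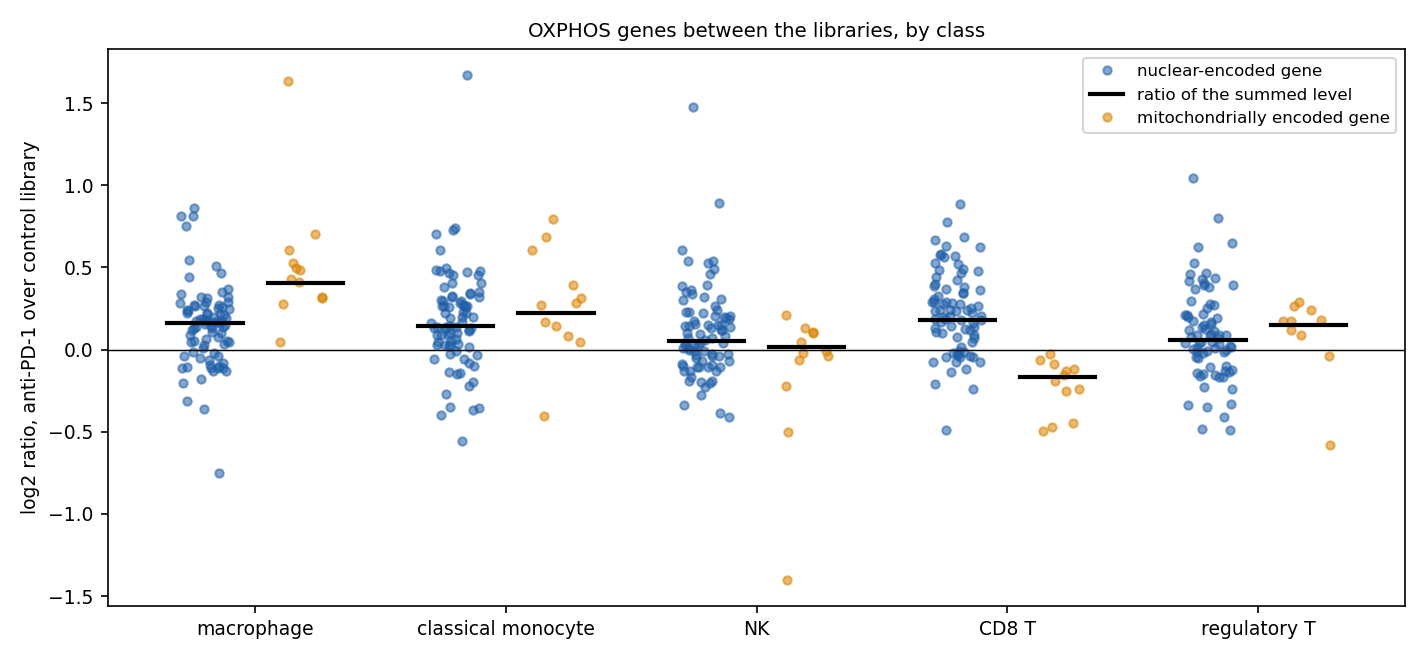
Log2 ratio anti-PD-1 over control of each measured nuclear-encoded and mitochondrially encoded gene in macrophages, classical monocytes, NK, CD8 T and regulatory T cells. The 12 mitochondrial genes all lie above 0 in macrophages and all below 0 in CD8 T cells, while nuclear medians are 0.16 and 0.23.

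Genes of neighbouring pathways did not all go with the chain. Glycolytic genes were lower in the anti-PD-1 library in 15 of 15 cases in macrophages (median log2 ratio -0.52, 6 past 1.5-fold) and in 15 of 15 in classical monocytes (-0.33, 6 past 1.5-fold), where 10.6% and 12.9% of all genes were lower by 1.5-fold. They were lower in 12 of 13 measured in cDC2, in 11 of 13 in regulatory T cells (median -0.75, 9 past 1.5-fold) and in 8 of 12 in CD8 T cells, and higher in 10 of 13 in NK cells. Of all measured genes, 54.7% were higher in macrophages, 53.9% in classical monocytes, 54.2% in cDC2, 60.0% in NK cells, 60.4% in CD8 T cells and 53.5% in regulatory T cells, with 9.91% lower by 1.5-fold in the last, and the counts that follow are to be read against these. Tricarboxylic acid cycle genes were higher in 12 of 17 in macrophages (median 0.21), 13 of 17 in classical monocytes (0.04) and 7 of 10 in cDC2. They were also higher in 13 of 16 in NK cells (0.20) and 11 of 14 in CD8 T cells (0.31), and lower in 7 of 9 in regulatory T cells. Of 7 genes listed for hypoxia signalling and respiration, Pdk1 and Bnip3 among them, 6 were lower in macrophages (median -0.78) and 7 in classical monocytes (-1.16). Genes of the mitochondrial ribosome, which translates the 13 mitochondrial members, were higher in 54 of 75 in macrophages (72.0%), 50 of 73 in classical monocytes (68.5%), 53 of 72 in NK cells (73.6%), 48 of 70 in CD8 T cells (68.6%) and 35 of 57 in regulatory T cells (61.4%), with medians of 0.11 to 0.18. In CD8 and regulatory T cells these shares lie near those of all genes. Cytochrome c and assembly genes, with Cyc1 and Cycs among them, were higher in 18 of 27 in macrophages (median 0.13) and 13 of 18 in CD8 T cells (0.16). Medians over all measured genes were 0.05, 0.04, 0.09, 0.13 and 0.03 in macrophages, classical monocytes, NK, CD8 T and regulatory T cells.

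Ndufa4 separated macrophages with the arginine-degrading enzyme Arg1 from those without more than any other member. Macrophages with an Arg1 UMI numbered 132 of 181 in control and 103 of 200 in anti-PD-1. Ndufa4 was at 166 CPM (141 to 195) with and 336 (266 to 420) without Arg1 in control, and at 151 (121 to 186) and 557 (501 to 618) in anti-PD-1. The log2 ratios were -1.02 (-1.42 to -0.60) and -1.89 (-2.24 to -1.55), from 149 and 78 and from 87 and 359 UMIs, and the intervals of cells with and without Arg1 do not overlap in either library. It was the only 1 of 76 measured nuclear members at least 1.5-fold lower in both libraries, against 4.27% of 4215 genes. No mitochondrial member of 11 was so. At any size, 40 of 76 nuclear and 8 of 11 mitochondrial members were lower in both, against 26.8% of genes. The nuclear sum was lower by log2 ratios of -0.13 and -0.24, complex IV by -0.16 and -0.39 and complex III by -0.22 and -0.23, and the mitochondrial sum by -0.04 and -0.29. Ribosomal genes differed in opposite directions, 0.18 and -0.40. At 2500 to 5000 UMIs the anti-PD-1 nuclear ratio was -0.013, so that sum depends on which cells are compared. With Arg1 read in cells thinned to 1000 UMIs and all Ndufa4 UMIs kept, the Ndufa4 ratios were -0.74 (-1.13 to -0.35) and -1.85 (-2.29 to -1.44). With both genes counted in thinned cells they were -0.71, with an interval that spans 0 (-1.72 to 0.30), and -1.46 (-2.50 to -0.54). Chosen after their values were seen, Ndufb11 (-0.43 and -0.50) and Cox6a1 (-0.40 and -0.35) were also lower with Arg1, and Ndufa12 (0.29 and 0.56) and Ndufab1 (0.19 and 0.46) higher, as was Ndufa9 (0.63 and 0.98), the 1 member at least 1.5-fold higher in both.

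The Ndufa4 protein is known to be replaced in complex IV by a relative, the product of the gene the files call AA467197 (Nmes1), whose transcript also carries the microRNA miR-147, and miR-147 is known to pair with the Ndufa4 mRNA. Complementary letters can be shown, which are not evidence of pairing in these cells. The hairpin is RefSeq's (GRCm38.p6, chr2:122640803-122640881, plus strand) and the site is in the 3' UTR of Ndufa4 (GENCODE M21, GRCm38, chr6:11900474-11900503, minus strand). Within the site, the stretch TCCGCACA starts at base 52 after the stop codon. Capitals mark the 2 complementary stretches: UGUGCGGA of the hairpin with TCCGCACA of the site, 8 bases, and GCUUCUG with CAGAAGC, 7 bases.
Mir147 hairpin: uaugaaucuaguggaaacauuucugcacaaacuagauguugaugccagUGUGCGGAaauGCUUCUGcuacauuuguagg
Ndufa4 transcript site: tgaaggtctttCAGAAGCcaTCCGCACAat
The site was in 4 of 4 protein-coding Ndufa4 transcripts. The letters TCCGCACA occurred in the 3' UTR of 96 of 20999 genes (0.457%), and among 91 members with an annotated 3' UTR only Ndufa4 had them. They were picked as the longest match to the hairpin in the Ndufa4 3' UTR itself, so their presence in Ndufa4 was set by that choice. The mature miRNA is not counted by libraries of this kind.

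AA467197, a gene chosen after its values were seen, ran opposite to Ndufa4 across the Arg1 split. It was at 1219 CPM with and 298 without Arg1 in control, and at 2746 and 607 in anti-PD-1, log2 ratios of 2.03 (1.68 to 2.41) and 2.18 (2.02 to 2.34). Between libraries the genes did not mirror each other: in macrophages as a whole Ndufa4 had a ratio of 0.86 and AA467197 one of 0.65 (0.55 to 0.76). Within macrophages with Arg1, Ndufa4 had a ratio of -0.14 (-0.54 to 0.25) and AA467197 one of 1.17, and within those without Arg1 the ratios were 0.73 (0.37 to 1.10) and 1.03. The higher Ndufa4 of anti-PD-1 macrophages was thus found in the cells without Arg1, which were 97 of 200 there and 49 of 181 in control. The difference between the ratios was not tested.

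Across classes Ndufa4 was low in migratory dendritic cells, at 162 CPM (108 to 234) and 138 (104 to 179), and in anti-PD-1 neutrophils, at 115 (85.8 to 151). It was high in CD8 T cells (493 and 526 CPM), NK cells (445 and 415), classical monocytes (433 and 600) and cDC2 (407 and 555), whose neighbours in this order overlap within their intervals in control. The highest anti-PD-1 class was nonclassical monocytes, at 692 CPM (605 to 790) in 49 cells, while 13 control cells had 225 CPM from 10 UMIs. AA467197 stood at 1019 and 1105 CPM in migratory dendritic cells, 1030 and 1619 in macrophages and 67.2 and 69.6 in regulatory T cells. In cDC2 it was 1042 CPM in control and 329 in anti-PD-1. The RNA free in droplets held 590 and 691 CPM of AA467197 and 217 and 346 of Ndufa4 in its own total, and free RNA was estimated above at 1.61% and 1.72% of the UMIs in lymphocytes.

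**Figure D5:**
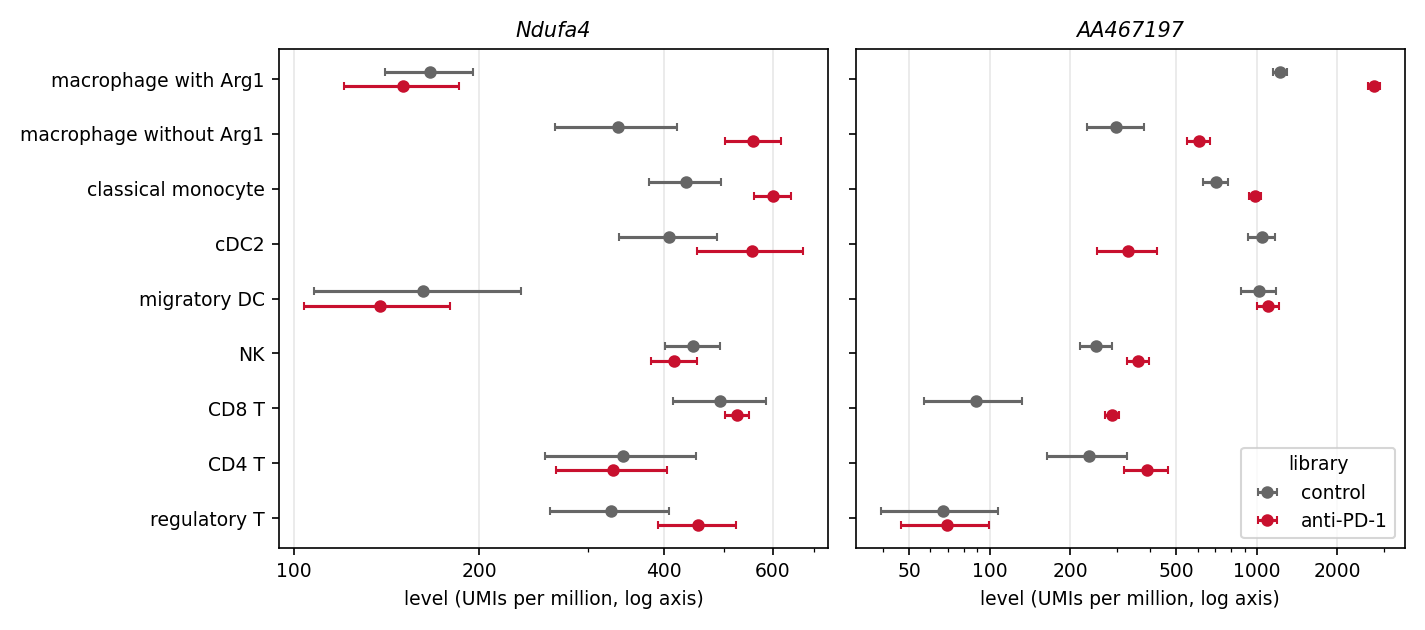
Levels of Ndufa4 and AA467197 (CPM, log axis) by cell class and in macrophages with and without Arg1 UMIs, control and anti-PD-1, with 95% counting intervals. With Arg1, Ndufa4 is at 166 and 151 CPM and AA467197 at 1219 and 2746. Without Arg1, Ndufa4 is at 336 and 557 and AA467197 at 298 and 607.

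CD8 T cells that were cycling, by a Mki67, Top2a or Birc5 UMI, had more of the nuclear members than other CD8 T cells in both libraries. In CD8 T cells the nuclear log2 ratio of cycling over other cells was 0.35 (0.27 to 0.43) for 8 against 62 control cells and 0.16 (0.14 to 0.18) for 169 against 891 anti-PD-1 cells, and 48 of 68 nuclear and 5 of 10 mitochondrial members were higher in both libraries, against 35.8% of genes. Within the sum, complex II had the highest ratio, at 0.98 (0.43 to 1.52) and 0.43 (0.29 to 0.57), with Sdhb at 552 and 199 CPM in control and 337 and 247 in anti-PD-1. In macrophages the nuclear ratio was 0.11 and 0.14, but 0.040 (-0.13 to 0.21) and -0.0099 (-0.16 to 0.14) in cells thinned to 1000 UMIs, so its direction turned in anti-PD-1. On all UMIs this came with 37 of 75 nuclear and 8 of 11 mitochondrial members higher in both against 33.6%. In NK cells it was 0.11 and 0.09, with 31 of 75 and 9 of 10 against 27.3%, and in regulatory T cells -0.06 and 0.16, with 24 of 58 and 4 of 8 against 20.5%. Cycling cells were deeper, with median UMIs of 6354 and 4829 against 3005 and 2795 in CD8 T cells, and ribosomal shares differed too, 29.04% against 37.1% in control CD8 T cells. In thinned cells the CD8 T ratios were 0.36 and 0.15, and among cells with 2500 to 5000 UMIs they were 0.56 and 0.072. With ribosomal and mitochondrial genes out of the totals they were 0.17 and 0.12.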

How the data were processed

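Each of the 2 deposited matrices holds raw UMI counts of 27998 genes over 737280 barcodes, without cell calling. They come from Cell Ranger 2.1 and the mm10 build, per the submitters' processing notes. From these counts, barcodes with at least 1000 UMIs and at most 10% mitochondrial UMIs were kept (4718746 and 12068667 UMIs) and gated on marker UMIs with minimums of 1 to 5, set after the depth was seen. No doublet caller was run. Members and lists were chosen with earlier results of these data known.

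UMIs of a class were summed to CPM with exact Poisson intervals. Shares carry exact binomial (Clopper-Pearson) intervals and log2 ratios conditional binomial ones, all at 95%. A gene was measured in a ratio when it had at least 20 UMIs over both libraries and at least 5 expected in the smaller, the latter a choice made after the files were seen, and a count under 3 was set to 3. With 1 library per group no test was made. The named genes are the most abundant nuclear member of each complex, the 3 most abundant mitochondrial ones, the 3 highest and 3 lowest ratios of each main class with at least 50 UMIs in the higher library, the 8 widest ranges across classes, the paralogue sets and the Sdh genes. Some results that this rule selects are not reported here. Cells in the cycling and Arg1 splits had at least 1 UMI. The ratio was checked on simulated data for macrophages, where 93% of 200 genes changed by a known fold were called among 6949 genes, as were 12.9% of the unchanged genes. Python 3.11.15, numpy 2.4.6 and scipy 1.17.1 were used. Alternatives covered depth, gates, weighting, mitochondrial limit, free RNA and denominator.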

Additional observations from a re-analysis of the deposited data

Results flagged for a closer look

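The mitochondrially encoded sum was lower in the anti-PD-1 library in migratory dendritic cells, with a log2 ratio of -0.16, and in CD8 T cells, at -0.17, and higher in macrophages, at 0.41. In migratory dendritic cells 5 mitochondrial members were higher and 5 lower, with a median of 0.0074, and the ratio was -0.0026 with gates 1 UMI higher. In CD8 T cells it was -0.056 among cells with 2500 to 5000 UMIs. These opposite directions of classes under the same contrast were not tested against each other, as each group has 1 library.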

How the results depend on the processing

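No paired analysis was possible because each group has 1 library and no replicate numbers. All values are log2 ratios, for nuclear then mitochondrial sums where both are given, and the cause of each move was not tested. The higher mitochondrial sum of anti-PD-1 macrophages, the lower one of anti-PD-1 CD8 T cells, the lower one of regulatory than CD8 T cells in both libraries and the lower Ndufa4 in macrophages with Arg1 kept their direction in every alternative run for them. Outside those runs, macrophages under 2500 UMIs went the other way, with 36483 mitochondrial CPM in control and 30576 in anti-PD-1. Ndufa4 was not computed at 2500 to 5000 UMIs, as a mean over cells or with other gates. A minimum of 500 UMIs, subtraction of free RNA and subunits alone moved none of the sums beyond their intervals. Small classes limit the rest: 70 control CD8 T cells and 8 cycling ones among them.

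Without ribosomal and mitochondrial genes in the totals, anti-PD-1 over control was 0.21 and 0.45 in macrophages, -0.058 and -0.095 in NK cells and 0.023 and -0.32 in CD8 T cells, -0.17 and -0.30 in migratory dendritic cells and 0.039 and 0.093 in T cells with no subset call. NK over macrophages became 0.31 and 0.33 in control and 0.047 and -0.22 in anti-PD-1, regulatory over CD8 T cells (mitochondrial) -0.93 and -0.48 in the libraries, the Arg1 split in anti-PD-1 -0.35 and -0.41, and cycling CD8 T cells (nuclear) 0.17 and 0.12.

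As a mean over cells, macrophages had 0.12 and 0.30, classical monocytes -0.0045 and -0.000047, regulatory T cells 0.011 and 0.038, CD8 T cells -0.21 (mitochondrial), cDC2 0.083 and 0.20, and migratory dendritic cells -0.24 (mitochondrial). NK over macrophages was -0.10 in control (mitochondrial) and -0.13 and -0.37 in anti-PD-1, regulatory over CD8 T cells -0.42 in anti-PD-1, the Arg1 split -0.24 in control (mitochondrial) and -0.18 in anti-PD-1 (nuclear), and cycling over other cells in anti-PD-1 0.14 in CD8 T cells and 0.19 in macrophages.

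In cells thinned to 1000 UMIs, macrophages had 0.13 and 0.33, classical monocytes -0.028 and -0.00079, NK cells 0.060 (mitochondrial), CD8 T cells 0.22 (nuclear), regulatory T cells 0.032 and cDC2 0.17 (both mitochondrial), and migratory dendritic cells 0.15 and -0.28. NK over macrophages was -0.11 in control (mitochondrial) and -0.13 and -0.38 in anti-PD-1, regulatory over CD8 T cells -0.43 in anti-PD-1, the Arg1 split -0.061 and -0.24 in control and -0.12 and -0.33 in anti-PD-1, and cycling macrophages 0.040 in control and -0.0099 in anti-PD-1. Of single genes, Ndufa3 in macrophages was at -0.18, Atp5k in classical monocytes at -0.031 and mt-Nd4 in CD8 T cells at 0.014.

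Cells of 2500 to 5000 UMIs, chosen after seeing the data, gave 0.032 and 0.26 in macrophages, -0.014 and 0.19 in classical monocytes, and mitochondrial values of 0.13 in NK, -0.056 in CD8 T and 0.29 in regulatory T cells. Both sums were 0.029 and 0.062 in cDC2, -0.12 and -0.52 in migratory dendritic cells, 0.10 and 0.24 in CD4 T cells and 0.030 and 0.27 in T cells with no subset call. NK over macrophages was -0.018 and 0.0038 in control and 0.024 and -0.13 in anti-PD-1, regulatory over CD8 T cells -0.61 and -0.26, the Arg1 split -0.26 and -0.72 in control and -0.013 in anti-PD-1 (nuclear), cycling CD8 T cells 0.56 and 0.072, and cycling anti-PD-1 macrophages 0.39. Cycling control macrophages of that depth gave no value.

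With a minimum of 2000 UMIs the mitochondrial values were 0.43 in macrophages, 0.28 in classical monocytes, 0.28 in regulatory T cells, 0.23 in CD4 T cells, -0.0047 for NK over macrophages in control and -0.27 for regulatory over CD8 T cells in anti-PD-1. With a mitochondrial limit of 5% they were 0.32 in macrophages, -0.096 in CD8 T cells, 0.070 and -0.22 for NK over macrophages and -0.40 for the Arg1 split in anti-PD-1, and with a limit of 20% 0.45 in macrophages, 0.35 in cDC2, -0.49 for NK over macrophages and -0.19 for the Arg1 split, both in anti-PD-1. With gates 1 UMI higher they were 0.26 in classical monocytes, 0.43 in regulatory T cells, and -0.75 and -0.16 for regulatory over CD8 T cells, 0.10 in cDC2 (nuclear 0.037), -0.0026 in migratory dendritic cells and 0.089 in CD4 T cells.

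Without cycling cells, mitochondrial values were 0.51 in macrophages, 0.081 in classical monocytes, 0.35 in cDC2, 0.048 in NK and 0.070 in regulatory T cells, and nuclear ones 0.031 in classical monocytes, 0.22 in CD8 T and 0.0091 in regulatory T cells. NK over macrophages was 0.030 in control (mitochondrial) and -0.14 in anti-PD-1 (nuclear), regulatory over CD8 T cells -0.41 in anti-PD-1, and the Arg1 split -0.15 and -0.24 (mitochondrial). Without cells carrying neutrophil UMIs, another choice made after seeing the data, the macrophage mitochondrial ratio was 0.38. The alternatives for the regulatory over CD8 T, Arg1 and cycling ratios were also chosen after seeing the data.

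With a minimum of 50 UMIs, no member was 1.5-fold lower in macrophages (0, from 1) or NK cells (0, from 1), and 1 was higher in NK cells. With 1 UMI in each library as the minimum, 4 were lower in macrophages, 2 in classical monocytes, 4 in NK cells, 4 in CD8 T cells and 2 in regulatory T cells.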

Other observations

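Cox6a2, the heart and muscle form of a complex IV subunit whose common form is Cox6a1, had its highest level in the anti-PD-1 library in plasmacytoid dendritic cells gated on Siglech and Ccr9. Of its 43 UMIs there, 25 were in 4 such cells, a level of 954 CPM (617 to 1408), 7 in 1060 CD8 T cells and 5 in 200 macrophages. The control library held 1 such cell, with 1 of 9 Cox6a2 UMIs. No UMI was found in 10 anti-PD-1 cDC1, which allows up to 54.3 CPM by the exact bound. The gene was noticed after its values were seen, and 4 cells of 1 library show nothing of other animals.

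CD8 T cells with a Gzmk UMI, a granzyme found in cells short of full cytotoxic differentiation, had nuclear sums of 26311 CPM against 24789 in those without in control (16 and 54 cells) and 29010 against 27232 in anti-PD-1 (689 and 371 cells). Both log2 ratios were 0.09. The mitochondrial ratios were -0.05 (-0.13 to 0.04) and -0.17 (-0.19 to -0.15). Ribosomal shares were 31.5% against 36.4% and 27.6% against 30.5%.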
